A study of Mus musculus with 12 samples.

Results

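The genes described here are 8 outputs of the circadian clock: the transcription factors Dbp, Tef, Hlf and Nfil3, the transcriptional repressors Ciart, Bhlhe40 and Bhlhe41, and the deubiquitinase gene Usp2. They were found in the count table by symbol, and all 8 were among its 55450 genes. The study sequenced total RNA from male mice, 7 to 9 weeks old, of 2 genotypes: wild type (Vaultrc5+/+) and homozygous knockout (Vaultrc5-/-) for the vault RNA gene Vaultrc5. There were 3 libraries in each of 4 groups: wild-type brain, knockout brain, wild-type liver and knockout liver. The titles name the wild-type libraries flx and number the libraries of every group 1 to 3. The labels used here give neither the strain, nor how the deletion was made, nor the time of day at which tissue was taken, and do not say what a shared number stands for. Nothing in them says whether libraries of a group came from separate animals, so p-values measure the spread between these libraries.

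The mammalian clock is a feedback loop in which the activators Arntl (BMAL1) and Clock, or Npas2 in place of Clock, bind E-box sequences and switch on their own repressors, the Per and Cry genes. The same activators drive output genes, so that messenger RNAs of output factors rise and fall each day, with a large swing in liver. Dbp, Tef and Hlf encode the PAR bZIP factors, which activate genes through a sequence called the D-box, and Nfil3 (E4BP4) encodes a repressor that binds the same sequence. Nfil3 is known to peak in liver at the opposite time of day to Dbp. Ciart (CHRONO) and the paired genes Bhlhe40 (DEC1) and Bhlhe41 (DEC2) encode repressors of the activators, and Usp2 encodes a rhythmic ubiquitin-removing enzyme. Levels are given below for each numbered library as well as for each genotype. The part of time of day in the differences between numbers was not tested, since the labels do not give it.

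RefSeq promoter windows (GRCm38.p6, 250 bases before to 50 after a start) were found for 7 of the 8 genes, 8 windows in all because Tef has 2 starts; Bhlhe40 had none in the table. The E-box CACGTG, which reads the same on both strands, was present in the windows of 3 genes, and in 7.15% of all 32851 windows. Ciart had 3 copies, a number reached or passed by 0.0883% of windows. The 3 windows below are shown because they hold the E-boxes of genes whose liver levels are described next. Each is printed 5′ to 3′ on the strand of its gene, up to the nearest annotated exon, with the E-boxes in capitals.
Ciart, chr3:95882252-95882478, minus strand: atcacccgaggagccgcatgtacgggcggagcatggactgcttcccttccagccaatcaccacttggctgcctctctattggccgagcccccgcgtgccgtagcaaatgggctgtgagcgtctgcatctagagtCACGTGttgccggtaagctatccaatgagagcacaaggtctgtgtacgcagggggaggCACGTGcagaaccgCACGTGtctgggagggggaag
Tef, chr15:81811164-81811413, plus strand: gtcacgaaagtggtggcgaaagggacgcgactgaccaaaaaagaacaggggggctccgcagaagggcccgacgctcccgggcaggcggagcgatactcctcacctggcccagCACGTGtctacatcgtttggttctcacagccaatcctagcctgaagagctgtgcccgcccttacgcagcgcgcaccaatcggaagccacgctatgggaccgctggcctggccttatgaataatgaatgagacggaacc
Bhlhe41, chr6:145865559-145865670, minus strand: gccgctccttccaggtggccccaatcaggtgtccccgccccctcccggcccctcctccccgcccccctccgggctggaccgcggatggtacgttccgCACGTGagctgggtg
The copies begin 116, 58 and 44 bases upstream of the RefSeq start in Ciart, 138 bases upstream in Tef and 153 bases upstream in Bhlhe41. The other Tef window held 1 E-box, inside an annotated exon. No D-box (TTATGTAA or TTACGTAA, both strands) was found in any of the 8 windows, against 1.06% of all windows. The ROR element core (TAGGTCA or TGGGTCA, both strands), found in 6.45% of all windows, occurred once, in Nfil3. A match is a run of letters and not a shown binding site, and these windows leave out introns and distant elements.

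Brain libraries held 14844971 to 18567381 expected counts each, and liver libraries 23247449 to 27155480. Levels below are scaled counts (CPM, read counts relative to library size) after TMM scaling over all 12 libraries, a scaling that evens out differences in library composition. Vaultrc5 had 33, 39 and 48 counts in wild-type livers 1 to 3, 4, 1 and 4 in wild-type brains, and 0 in each of the 6 knockout libraries. The hepatocyte gene Alb had at least 714287 counts in every liver and at most 5 in any brain library, and the neuronal gene Snap25 at least 31003 in every brain and at most 3 in any liver library. In liver, same-numbered wild-type and knockout libraries deviated together from their group means, with correlations across genes of 0.332 to 0.398. In brain, those of numbers 1 and 2 did so (0.725 and 0.68) and those of number 3 did not (-0.03).

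In both liver libraries numbered 3, 6 of the 8 genes (Dbp, Tef, Hlf, Ciart, Bhlhe40 and Usp2) lay above all 4 other liver libraries, and Nfil3 lay below all 4. Over all 15329 genes tested in liver, 11% lay above in this way and 13.2% below. Usp2 also lay lowest in both number 1 livers (5.98% of genes) and Nfil3 highest in both number 2 livers (7.44%). None of the 8 was highest in number 1 (9.64% of genes) or lowest in number 2 (8.47%). The 8 genes were chosen by name with earlier results of these data known, and what in those results led to the choice is not recorded, so their levels and differences are given as a description.

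Usp2 showed the clearest separation. It was at 6.30, 7.19 and 35.8 CPM in wild-type livers 1, 2 and 3, and at 4.44, 8.29 and 31.7 CPM in knockout livers 1, 2 and 3. Both number 3 livers were thus several times higher than the rest, in either genotype. In a fit with number and genotype, number 3 exceeded number 1 by 2.68 ± 0.19 (SE) on the log2 scale and number 2 by 2.12 ± 0.19. Ciart had 3.68, 2.81 and 9.88 CPM in wild-type livers and 0.724, 2.32 and 13.4 CPM in knockout livers. Knockout liver 1 held only 14 counts of Ciart and knockout liver 3 held 241, so that the range over the 6 livers was 18.5-fold.

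The PAR bZIP activators moved in the same direction by smaller steps. Dbp was at 80.0, 70.2 and 139 CPM in wild-type livers 1 to 3 and at 40.8, 46.9 and 122 CPM in knockout livers 1 to 3. Number 3 lay above number 1 by 1.21 ± 0.20 (SE) and above number 2 by 1.20 ± 0.20 on the log2 scale, whereas numbers 1 and 2 differed by 0.01 ± 0.20. Tef was at 136, 143 and 200 CPM in wild-type and 93.8, 107 and 202 CPM in knockout livers. Its 2 number 3 livers were close to each other, while numbers 1 and 2 were lower in the knockout. Hlf varied least, from 66.6 to 99.9 CPM over the 6 livers, with 99.9 and 99.1 CPM in the number 3 livers of wild type and knockout.

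The repressors did not all move one way. Nfil3, which competes with the PAR bZIP factors for the D-box, was at 12.1, 15.3 and 9.57 CPM in wild-type livers 1 to 3 and at 13.1, 14.97 and 6.82 CPM in knockout livers. It was lowest in the number 3 livers and highest in those numbered 2, in both genotypes, with number 3 below number 2 by a log2 difference of -0.89 ± 0.18 (SE). Bhlhe40 was at 211, 203 and 242 CPM in wild-type and at 142, 115 and 327 CPM in knockout livers. It was highest in both number 3 livers, and its range over the 3 livers was wider in the knockout. Bhlhe41 was at 10.9, 11.9 and 11.3 CPM in wild-type livers, which did not separate number 3, and at 7.24, 6.13 and 12.9 CPM in knockout livers, which did.

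**Figure D1:**
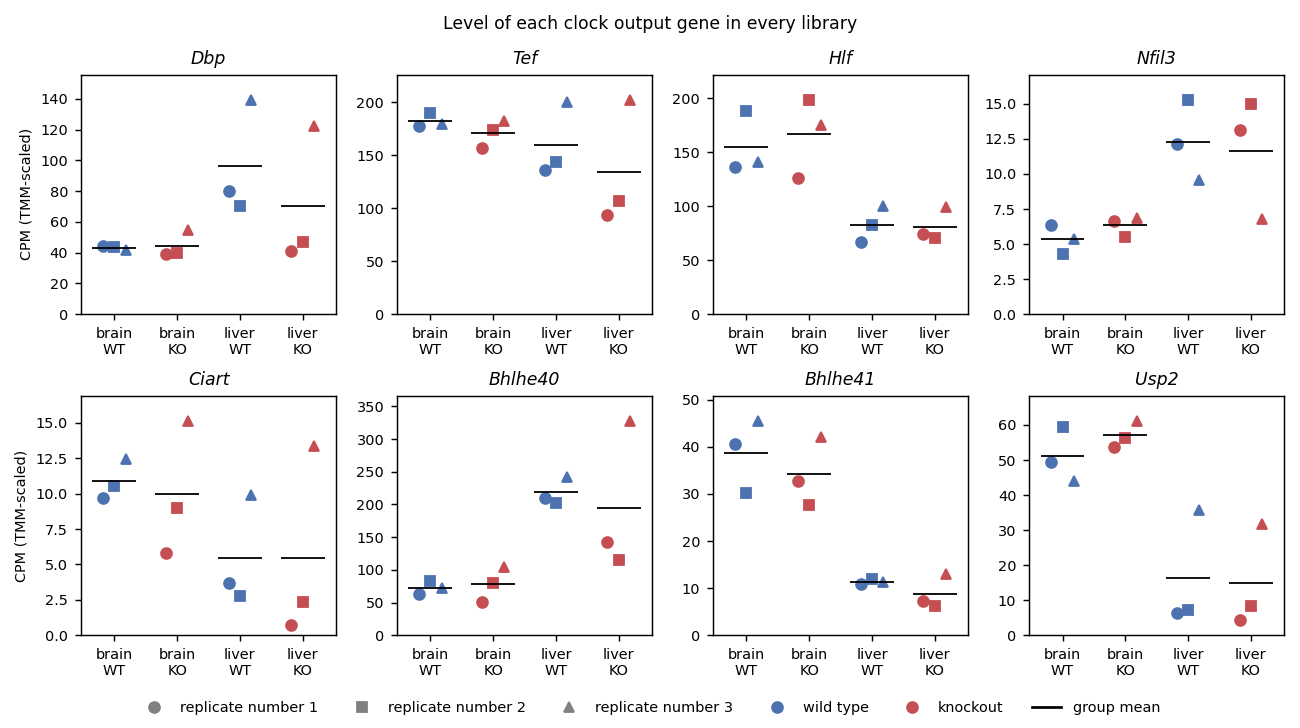
Level of each gene in TMM-scaled CPM (vertical axis, from 0, a scale per panel) in the 4 groups, with 1 point per library, its shape giving the replicate number, and a line at the group mean. The triangles of number 3 lie above the other liver points for Dbp, Tef, Hlf, Ciart, Bhlhe40 and Usp2 and below them for Nfil3.

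Of 17 core clock genes, 16 of them tested in liver, 5 lay above and 5 below all other livers in both number 3 libraries, against 11% and 13.2% of all genes tested. In number 1, 3 lay above and 3 below (9.64% and 5.98%), and in number 2, 0 above and 1 below (7.44% and 8.47%). Arntl, the main activator, was at 11.5, 12.2 and 3.26 CPM in wild-type livers 1 to 3 and at 19.1, 15.1 and 3.77 CPM in knockout livers. Per3, a period gene, was at 29.2, 26.3 and 50.2 CPM in wild-type livers and at 14.7, 22.7 and 58.5 CPM in knockout livers. Thus the livers with high Dbp, Usp2 and Per3 were those with low Arntl and Nfil3. Nr1d1 (REV-ERB alpha), a repressor of Arntl, did not follow this order, with 244, 227 and 162 CPM in wild-type and 230.3, 152 and 193 CPM in knockout livers; its exons overlap those of Thra on the other strand. The edgeR fit called a replicate number term for 1.02% of liver genes, and for 1 of the 8 output genes (Usp2) and 3 of 16 tested core clock genes (Arntl, Clock and Npas2) at an adjusted p under 0.05. Nothing is read from that count, which was 2 output genes without wild-type liver 1 and 0 without knockout liver 3. Summed markers of hepatocytes, with all 5 at 3 or more counts in each liver, moved with number as well. The sums were 79590, 66150 and 84140 CPM in wild-type livers 1 to 3 and 64930, 50560 and 86020 CPM in knockout livers. Most of each was the single gene Alb, at 64500, 52130 and 69840 CPM in wild-type livers and 51570, 39470 and 71190 CPM in knockout livers. Kupffer cell markers were highest in number 2 in both genotypes, as Nfil3 was, with 125.3, 170.4 and 151.0 CPM in wild-type livers and 173.8, 323.8 and 136.7 CPM in knockout livers. The sum of the microglia list, made for brain and not read as a cell type in liver, was highest in number 2 too. It was 46.9, 66.4 and 55.3 CPM in wild-type livers and 63.7, 105.3 and 53.7 CPM in knockout livers. The part of these cell types in the differences was not tested. In a whole tissue, fewer cells of a type and less RNA per cell cannot be told apart.

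**Figure D2:**
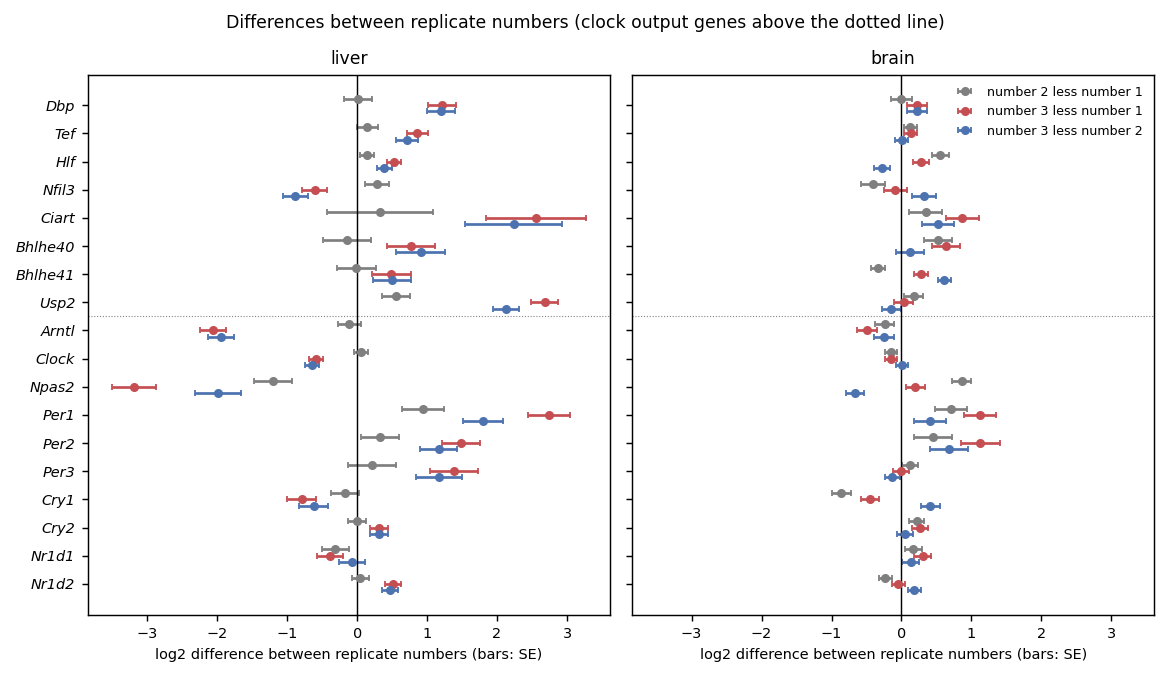
Log2 differences between replicate numbers (horizontal axis, bars are SE) for the 8 clock output genes and 10 core clock genes, in liver on the left and brain on the right, from fits with number and genotype as terms. In liver the differences that involve number 3 lie away from 0 in opposite directions for Dbp and Usp2 on one side and Nfil3 and Arntl on the other, and numbers 2 and 1 differ less.

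Genes placed downstream of the PAR bZIP factors, a list of 12 genes that includes drug-metabolising enzymes, did not share a single pattern. In liver 5 of them lay above and 1 (Ddc) below all other libraries in the number 3 pair, against 11% and 13.2% of all genes, and 4 (Cyp2b10, Cyp2c37, Cyp4a10 and Cyp4a14) lay below all others in the number 2 pair, against 8.47%. In the number 1 pair 1 (Cyp2c37) lay above and 2 (Por and Pdxk) below, against 9.64% and 5.98%. Among the 5 was Por, the electron donor of microsomal cytochromes P450, at 184, 199 and 408 CPM in wild-type and 152, 242 and 332 CPM in knockout livers. The largest ranges between numbers belonged to Cyp4a14, a fatty acid hydroxylase, and Cyp2b10, a drug-inducible P450. Cyp4a14 was at 203, 89.5 and 582 CPM in wild-type and 155, 3.70 and 514 CPM in knockout livers, and Cyp2b10 at 15.01, 2.17 and 6.62 CPM and at 8.89, 0.221 and 9.48 CPM. Both were lowest in number 2. Knockout liver 2 held only 4 counts of Cyp2b10, close to the floor of 3 counts, so its range rests in part on that library. In brain only 4 of the 12 passed the low-count filter, and of these the log2 differences between numbers were largest for Ddc, an enzyme of dopamine and serotonin synthesis, and Por. Ddc was at 2.24, 1.86 and 6.17 CPM in wild-type and 1.60, 2.67 and 3.53 CPM in knockout brains, and Por at 32.3, 39.5 and 38.4 CPM and at 33.3, 37.4 and 37.8 CPM.

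Dbp ranged from 39.3 to 54.6 CPM over the 6 brains, a 1.39-fold range against 3.41-fold in liver, and Usp2 from 44.0 to 61.0 CPM, 1.39-fold against 8.06-fold. The range was narrower in brain for every one of the 8 except Hlf, at 1.57-fold in brain and 1.5-fold in liver. Ciart again lay highest in number 3, at 9.70, 10.6 and 12.5 CPM in wild-type brains 1 to 3 and 5.83, 9.01 and 15.1 CPM in knockout brains. Its counts were not whole numbers in 6 of the 12 libraries, most of them brain. Bhlhe41 was at 40.6, 30.3 and 45.4 CPM in wild-type and 32.8, 27.6 and 42.1 CPM in knockout brains, lowest in number 2 and highest in number 3 in both genotypes. Hlf was at 136, 188 and 141 CPM in wild-type and 126, 198 and 175 CPM in knockout brains, lowest in number 1 and highest in number 2. Both libraries numbered 1 lay below the other 4 for Hlf and Bhlhe40 (17.4% of all genes in brain), both numbered 2 above for Hlf (16.3%) and below for Bhlhe41 (15.6%), and both numbered 3 above for Ciart and Bhlhe41 (5.26%). None of the 8 lay above in number 1 (20.3% of genes) or below in number 3 (5.35%). The number term was called for 7.93% of brain genes and for 1 of the 8 output genes (Bhlhe41). It was called for no output gene without wild-type or knockout brain 1 or 2, for 5 without wild-type brain 3 and for 3 without knockout brain 3. The share of all genes called in those fits is not given here, so nothing particular to the 8 is read from these counts. The 4 cerebellar markers Pcp2, Cbln1, Calb1 and Gabra6 summed to 649, 77.9 and 187 CPM in wild-type brains 1 to 3 and to 619, 59.0 and 300.7 CPM in knockout brains, the reverse of the order of Hlf in both genotypes. Astrocyte markers (683, 413.7 and 609.8 CPM in wild-type brains 1 to 3, and 585, 423.4 and 494.9 CPM in knockout brains) had that reverse order too. So did the sum of Lrat, Des, Reln and Rgs5, a list made for liver stellate cells, which is not read as a cell type in brain. Neuron markers followed the order of Hlf in both genotypes, with 3058, 4156 and 3071 CPM in wild-type brains and 3363, 3912 and 3566 CPM in knockout brains, as did microglia markers, with 60.5, 99.0 and 85.6 CPM and 66.9, 98.6 and 84.6 CPM. The part of these cell types in the differences was not tested.

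The question of the design was whether loss of Vaultrc5 alters expression, and none of the 8 genes was called between the genotypes in brain or liver. By edgeR, 0 of 18075 genes (0%) were called in brain and 0 of 15329 (0%) in liver, and 0 of the 8 in each. At an unadjusted p under 0.05 there were 0 of the 8 genes in either tissue, against 0.675% of brain and 3.5% of liver genes. With the replicate number as a block in the edgeR fit, 2 of the 8 reached an unadjusted p under 0.05 in liver (Dbp and Tef, both lower in the knockout), against 6.41% of all genes. In brain 1 did (Bhlhe41, lower in the knockout), against 2.25%, but there the numbers were not taken to pair the genotypes. None passed adjustment in either tissue. DESeq2 called 0 of the 8 in either tissue and 0 of all genes in brain and 10 in liver. For all 8 genes the 3 wild-type and 3 knockout values overlapped in both tissues. Values that did not overlap occurred for 4.18% of genes in brain and 9.86% in liver.

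In brain, Dbp averaged 43.3 ± 1.09 CPM without the deletion and 44.6 ± 8.69 CPM with it (SD, n = 3), and its log2 fold change was 0.03 ± 0.14 (SE). The other 7 genes had log2 fold changes between -0.20 (Bhlhe41, SE 0.21) and 0.23 (Nfil3, SE 0.19). The median of the 8 was 0.06, beside -0.01 for all genes. The edgeR adjusted p was 1.00 for each.

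In liver, 7 of the 8 log2 fold changes were negative, and errors were larger than in brain for every gene but Hlf (SE 0.19 in liver and 0.20 in brain). The median was -0.14, beside 0.01 for all genes. In wild-type livers Dbp averaged 96.5 ± 37.3 CPM, and in knockout livers 70.1 ± 45.5 CPM (SD, n = 3); its log2 fold change was -0.44 ± 0.53 (SE, edgeR adjusted p = 0.992). Bhlhe41 was at 11.4 ± 0.467 and 8.76 ± 3.64 CPM, with -0.36 ± 0.27, and Tef had -0.24 ± 0.34. These values moved with single livers. Without knockout liver 3 they were -1.13 for Dbp, -0.76 for Bhlhe41 and -0.67 for Tef. Dbp had -0.080 without wild-type liver 3, Tef -0.023 without knockout liver 1 and Bhlhe41 -0.17 without knockout liver 2. Usp2 and Ciart, which had the widest ranges, had -0.13 ± 1.06 and 0.02 ± 1.11. The sign for Ciart turned to -0.45 ± 0.58 with the replicate number as a block and to -0.01 with library totals, and the signs of Hlf, Nfil3, Bhlhe40 and Usp2 turned in fits that left out single livers. For Usp2 the estimate ran from -1.36 without knockout liver 3 to 1.16 without wild-type liver 3. With the block, Dbp, lower in the knockout in all 3 pairs, had -0.56 ± 0.16 and Tef -0.30 ± 0.12, and the smallest edgeR adjusted p of the 8 was 0.748, so 0 of the 8 were called, against 0.013% of all genes.

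Set side by side by number, with 1 library of each genotype and so no replicate check, the livers gave ratios that differed between numbers. The knockout to wild-type ratio of Dbp was 0.51 in number 1, 0.668 in number 2 and 0.88 in number 3. For Bhlhe40 it was 0.677, 0.568 and 1.35, and for Bhlhe41 0.662, 0.517 and 1.14. Ciart had ratios of 0.197, 0.827 and 1.35, and Tef 0.687, 0.744 and 1.01. In these 5 genes the ratio was highest in number 3. In the other 3 it was not: Nfil3 had 1.08, 0.981 and 0.713, Hlf 1.11, 0.855 and 0.992, and Usp2 0.705, 1.15 and 0.885. When both number 3 livers were left out, an alternative chosen after the values were seen, 5 of the 8 genes (Dbp, Tef, Ciart, Bhlhe40 and Bhlhe41) had both knockout livers below both wild-type ones, where 18.6% of 15502 genes did. None had both above, where 17.8% did. Of 12 lists of cell type markers, 6 also separated these 4 livers by genotype. Hepatocyte markers (5 of 5 detected, most of the sum being Alb) summed to 79590 and 66150 CPM in wild-type livers 1 and 2 and to 64930 and 50560 CPM in knockout livers 1 and 2. The stellate cell sum was likewise lower in the knockout, with 283.1 and 327.4 against 275.1 and 251.4 CPM. Its members did not agree in the fit of all liver libraries, with log2 fold changes of -0.14 ± 0.16 (Lrat, SE), -0.16 ± 0.16 (Reln), 0.33 ± 0.25 (Des) and 0.15 ± 0.12 (Rgs5). Higher in the knockout were Kupffer cell markers (125.3 and 170.4 against 173.8 and 323.8 CPM), endothelial markers (153.5 and 152.5 against 186.9 and 177.7 CPM), red cell markers (30.6 and 13.2 against 49.3 and 36.4 CPM) and bile duct markers (12.3 and 17.2 against 23.1 and 17.7 CPM). Their part in the differences was not tested. The log2 fold changes were then -0.76 ± 0.13 (SE) for Dbp, -0.76 ± 0.17 for Bhlhe41, -0.67 ± 0.13 for Bhlhe40 and -0.47 ± 0.12 for Tef. Hlf, Nfil3 and Usp2 stayed within 1 SE of 0. None of the 8 was called, the smallest edgeR adjusted p being 0.497 for Dbp, and 0 of all genes were. At an unadjusted p under 0.05 there were 4 of the 8 genes against 5.17% of all genes. The livers left out were picked after the values of these same genes were seen, and the genes vary together. Nothing is therefore read from this count or from the 5 of the 8 above. Whether the knockout difference depends on the number was not tested.

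**Figure D3:**
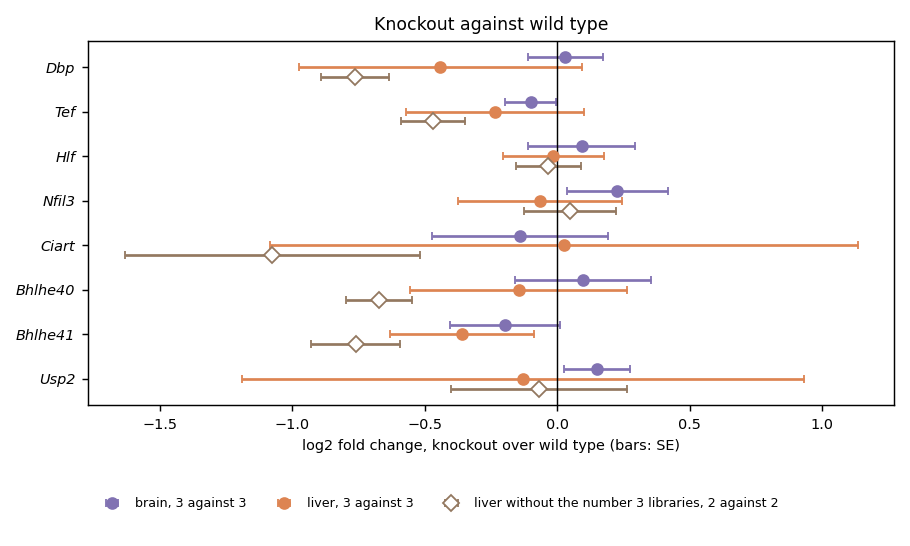
Log2 fold change of knockout over wild type (horizontal axis, bars are SE) for each gene in brain, in liver, and in liver without the libraries numbered 3. Liver errors are wide for Ciart and Usp2, and the open diamonds of Dbp, Tef, Bhlhe40 and Bhlhe41 lie between -0.47 and -0.76.

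The difference between the liver and brain knockout effects was tested over all 12 libraries. It was called for 0 of 20141 genes (0%) and for 0 of the 8 by edgeR, with 0 of the 8 and 2.43% of all genes at an unadjusted p under 0.05; DESeq2, which called 1 gene in all, and the fit with the replicate block also called 0 of the 8, the latter against 0.00993% of all genes. With the block, 1 of the 8 (Dbp, -0.59 ± 0.22) reached an unadjusted p under 0.05, against 4.51% of all genes. That block also pairs brain libraries by number, which were not taken as paired. Dbp had a liver less brain difference of -0.50 ± 0.53 (SE) on the log2 scale, which ran from -1.17 without knockout liver 3 to -0.14 without wild-type liver 3. Ciart had 0.13 ± 1.11, which turned to -0.20 with the block and to -0.95 without the number 3 livers.

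The ratio of Dbp to Nfil3 counts within a library needs no scaling between libraries. This ratio of RNA counts leaves out Tef and Hlf and does not measure protein or binding at the D-box. It was 6.58, 4.59 and 14.5 in wild-type livers 1 to 3 and 3.10, 3.12 and 17.8 in knockout livers 1 to 3. In wild-type brains it was 6.87, 10.0 and 7.75, and in knockout brains 5.89, 7.14 and 7.95. The knockout to wild-type difference in log2 ratio was -0.45 in liver (two-sided exact permutation test, p = 0.6) and -0.22 in brain (two-sided exact permutation test, p = 0.5), where 3 libraries against 3 allow no p under 0.1. By number, the knockout less wild-type difference in liver was -1.09, -0.56 and 0.30. The liver difference ran from -1.29 without knockout liver 3 to 0.02 without wild-type liver 3.

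**Figure D4:**
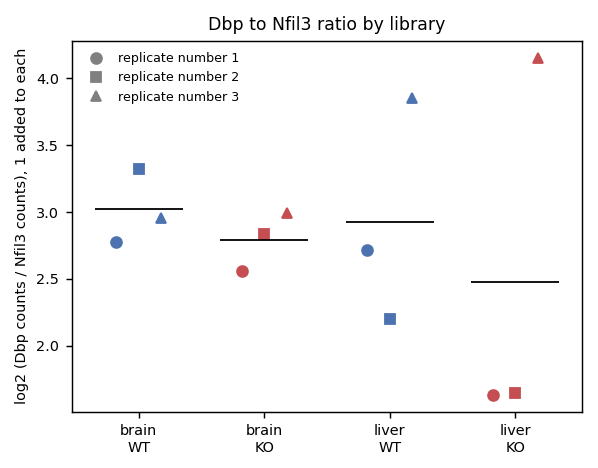
Log2 ratio of Dbp to Nfil3 counts, with 1 count added to each (vertical axis), in the 4 groups, with 1 point per library shaped by replicate number and a line at the group mean. The number 3 livers stand at 3.86 (wild type) and 4.16 (knockout), above the other 4 livers and all 6 brains.

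In the wild type 6 of the 8 genes were called between the tissues by edgeR, 3 higher in brain (Hlf, Bhlhe41 and Usp2) and 3 higher in liver (Dbp, Nfil3 and Bhlhe40), where 78.6% of 18850 genes were called, 43.9% higher in brain and 34.7% higher in liver. In the knockout, on separate libraries, 5 were called, the same without Dbp, where 78.7% of genes were called, 43.5% higher in brain and 35.2% higher in liver. With the replicate block 7 were called in the wild type and 5 in the knockout, where 76.9% and 76.6% of all genes were. With most genes called, nothing particular to the 8 is read from these counts.

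The 2 DEC genes, which encode related repressors, were distributed in opposite ways. Bhlhe40 was at 72.7 ± 10.2 CPM in wild-type brain and 219 ± 20.9 CPM in wild-type liver (SD, n = 3), a brain over liver log2 fold change of -1.61 ± 0.14 (SE, edgeR adjusted p = 1.87e-05). Bhlhe41 was at 38.8 ± 7.73 and 11.4 ± 0.467 CPM, a log2 fold change of 1.74 ± 0.16 (edgeR adjusted p = 3.39e-05). In the knockout they had -1.37 ± 0.43 (edgeR adjusted p = 0.0203) and 1.91 ± 0.30 (edgeR adjusted p = 0.000656). Neither gene overlapped between the tissues in either genotype, which is a description only, as the share of all genes is not given here. Of the PAR bZIP genes, Hlf was higher in wild-type brain by 0.88 ± 0.19 and in knockout brain by 0.98 ± 0.20, whereas Tef was not called, with 0.16 ± 0.16 and 0.30 ± 0.28. Dbp was lower in brain in the wild type, at -1.18 ± 0.25 (edgeR adjusted p = 0.00275), and had -0.70 ± 0.41 in the knockout (edgeR adjusted p = 0.152), which went to -0.055 without knockout liver 3 and to -1.0 without knockout liver 1. Nfil3 was lower in brain at -1.22 ± 0.23 and -0.93 ± 0.29. Usp2 was higher in brain at 1.61 ± 0.63 (edgeR adjusted p = 0.0451) and 1.90 ± 0.64 (edgeR adjusted p = 0.0269). Ciart had 0.97 ± 0.44 and 0.82 ± 0.89 and was not called.

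Several of these calls rest on a scaling or a library. With library totals in place of TMM, the all-gene median of the brain over liver log2 fold change went from 0.21 to 1.05 for wild-type libraries and from 0.21 to 1.08 for knockout libraries, and the split of all genes from 8275 higher and 6542 lower in brain to 11635 and 3997 in the wild type and from 8178 and 6611 to 11668 and 3871 in the knockout. Then the direction of Dbp in the knockout turned to 0.15, the calls of Dbp in the wild type, of Nfil3 in both genotypes and of Bhlhe40 in the knockout were lost, and Tef in both genotypes and Ciart in the wild type were called higher in brain. The Usp2 call in the wild type was lost without any single wild-type library other than liver 3, with edgeR adjusted p-values of 0.0768 to 0.161. In the knockout the number of genes called fell from 5 to 3 without brain 1 or liver 2, and to 2 without brain 2. Without the liver numbered 3, Tef and Ciart were called in both genotypes, Tef at 0.34 for wild-type and 0.69 for knockout libraries and Ciart at 1.71 and 2.64 on the log2 scale, which brought the calls to 8 and 7. For fits with a library left out the share of all genes called is not given here, so nothing particular to the 8 is read from these counts.

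**Figure D5:**
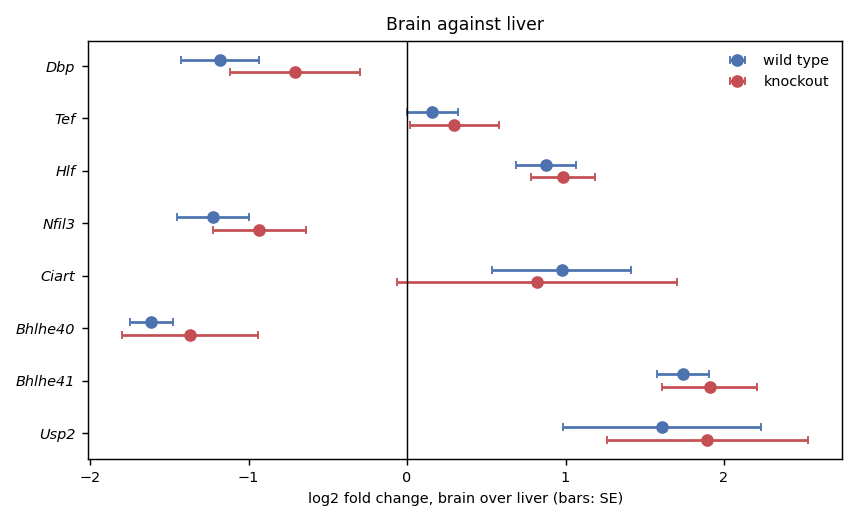
Log2 fold change of brain over liver (horizontal axis, bars are SE) for each gene in the wild type and in the knockout. Bhlhe41, Usp2 and Hlf lie to the right of 0 and Bhlhe40 and Nfil3 to the left in both genotypes.

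Levels can be compared between genes only per length, and were divided by the merged exon length in kb (GENCODE M21). In wild-type brain Hlf and Tef stood highest at 23.2 and 23.1 CPM per kb, with overlapping ranges, followed by Bhlhe40 (15.4) and Dbp (14.5), also overlapping, then Usp2 (10.6), Bhlhe41 (5.77), Ciart (4.83) and Nfil3 (2.65), of which only Bhlhe41 and Ciart overlapped. In wild-type liver the order was Bhlhe40 (46.5), Dbp (32.2), Tef (20.3), Hlf (12.4), Nfil3 (6.08), Usp2 (3.41), Ciart (2.41) and Bhlhe41 (1.69). There Tef did not overlap Hlf, nor Hlf Nfil3, while the other neighbours overlapped. The order of the genes was the same in the knockout as in the wild type of each tissue. The counting step's use of strand is not stated, and exons of Dbp (with Sphk2), Tef, Bhlhe40, Bhlhe41 and Usp2 overlap exons of genes on the other strand.

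The pattern of Dbp over the 12 libraries, as log2 CPM less the mean of the tissue, was compared with that of 13667 genes tested in both tissues. Tef had the highest correlation of all, r = 0.964, followed by Ifrd1 (0.939), a transcriptional co-regulator, and Eif1 (0.936), a translation initiation factor. The lowest were those of Dcbld2 (-0.95), Snx11 (-0.94) and Ahcyl2 (-0.94). Of the other output genes, Ciart had r = 0.934, Usp2 0.862, Bhlhe40 0.822, Bhlhe41 0.737, Hlf 0.558 and Nfil3 -0.63, and Arntl, Clock and Per3 had -0.90, -0.93 and 0.933. The genes share the same 12 libraries, of which the livers vary most, so these values in part restate the order of the livers given above. In brain the highest library differed, being wild-type brain 2 for Tef and knockout brain 3 for Dbp.

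Coordinates are those of GENCODE M21 on GRCm38, 1-based. Dbp (ENSMUSG00000059824.12) lies on chromosome 7 from 45705088 to 45710203, Tef (ENSMUSG00000022389.15) on chromosome 15 from 81802421 to 81826863, Hlf (ENSMUSG00000003949.16) on chromosome 11 from 90336536 to 90390895 and Nfil3 (ENSMUSG00000056749.7) on chromosome 13 from 52967209 to 52981073. Ciart (ENSMUSG00000038550.10) lies on chromosome 3 from 95878503 to 95882251, Usp2 (ENSMUSG00000032010.15) on chromosome 9 from 44067021 to 44095627, and Bhlhe40 (ENSMUSG00000030103.11) and Bhlhe41 (ENSMUSG00000030256.11) both on chromosome 6, from 108660629 to 108666925 and from 145858243 to 145865558. All 8 are annotated as protein-coding.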

How the data were processed

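Total RNA of 12 libraries was sequenced after ribosomal RNA depletion, as stranded single-end reads per the labels' protocols. The authors deposited expected counts per gene, neither normalized nor pooled. The submitters' processing notes name cutadapt, STAR and mm10; versions, the counting tool and its strand setting are not given in the sources used here. Between 5.06% and 5.71% of values per library were not whole, and counts were rounded. All 55450 gene identifiers matched GENCODE M21.

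Each comparison was fitted over the whole table with edgeR 4.0.16 (R 4.3.3; robust quasi-likelihood F-test, TMM, filterByExpr with a minimum count of 10 and total of 15) and Benjamini-Hochberg adjustment at 0.05. SE is the absolute log2 fold change over the square root of F. Fits used the 6 libraries compared, or all 12 for the interaction. All 8 genes passed the filter in every fit. Fits were tested on simulated counts. Replicate pairs differed by 27.2 to 228 times counting noise (chi-square over degrees of freedom), so none was merged. Alternatives were DESeq2 1.42.0, its size factors, library totals, no filter, a threshold of 0.1, the replicate number as a block, and each library left out. The block's pairing comes from the numbers in the titles. It was taken to pair wild type and knockout in liver, where all 3 same-numbered correlations passed 0.1, but not in brain, nor brain with liver. The members and lists were chosen with earlier results of these data known. Named genes are the 8 members, Arntl, Nr1d1 and Per3, the downstream genes with the widest range between numbers, the 3 genes most and least correlated with Dbp, and the label checks; any other gene named was chosen after its values were seen. A floor of 3 counts equals 0.124 to 0.167 CPM.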

Additional observations from a re-analysis of the deposited data

How the results depend on the processing

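No alternative called any of the 8 genes between genotypes in either tissue or in the interaction; over these alternatives the adjusted p was 0.995 or more in brain, 0.497 or more in liver and 1.00 in the interaction, where 5 of 88, 17 of 96 and 16 of 144 estimates changed sign. With one library left out, the brain knockout log2 fold changes whose sign turned ran from -0.16 to 0.33 for Bhlhe40, -0.57 to 0.13 for Ciart, -0.040 to 0.26 for Hlf and -0.14 to 0.12 for Dbp. In liver they ran from -1.83 to 0.78 for Ciart, -0.30 to 0.20 for Nfil3, -0.19 to 0.14 for Hlf, -1.36 to 1.16 for Usp2 and -0.76 to 0.12 for Bhlhe40, and the Dbp to Nfil3 log2 ratio from -1.29 to 0.019. In the interaction they ran from -0.29 to 0.061 for Hlf, -1.71 to 0.88 for Ciart, -0.86 to 0.023 for Bhlhe40, -0.57 to 0.025 for Bhlhe41, -0.58 to 0.039 for Tef and -1.52 to 0.97 for Usp2. Of the other settings, library totals turned Ciart in liver to -0.0085 and Dbp between knockout brain and liver to 0.15. Without the number 3 livers, liver values were -1.08 for Ciart and 0.048 for Nfil3, and the interaction of Ciart was -0.95. The cause of these changes was not tested.

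With the replicate block, Ciart turned to -0.45 in liver and -0.20 in the interaction, and 0 of the 8 genes were called in brain, liver or the interaction. Between the tissues, where the block joins brain and liver libraries that share only a number, it raised the calls from 6 to 7 in the wild type through Ciart (adjusted p = 0.0135) and left 5 in the knockout. For the Dbp to Nfil3 differences in log2 ratio (-0.45 in liver, -0.22 in brain) the block cannot move the mean in a design with 1 library per number and genotype.

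The tissue calls in the knockout fell from 5 to 3 without a low-count filter and ran from 2 to 7 with one library left out. The output genes called for replicate number rose from 1 to 2 in brain with a threshold of 0.1, no filter, DESeq2 or genotype left out, and ran from 0 to 5 with one library left out. In liver they went from 1 to 3 at a threshold of 0.1, 2 with library totals, 5 without a filter and 4 with DESeq2, were 0 without the number 3 livers, and ran from 0 to 2 with one library left out. Over all genes, those called for number went in brain from 1433 to 2400 without a filter and 2607 at a threshold of 0.1, and in liver from 157 to 376 at a threshold of 0.1, 623 without a filter, 529 with DESeq2 and 7 without the number 3 livers. Those called between genotypes in liver went from 0 to 4 without a filter, 10 with DESeq2 and 2 with the block. For these tissue fits, the remaining settings and fits with one library left out, all-gene counts are not given here. Nothing particular to the 8 is read from their counts. Ciart had 14 counts in knockout liver 1, the fewest of the 8 genes in any library.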
